A study of Mus musculus with 4 samples.

Results

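The rows described here are the 68 gene rows of the mouse T cell receptor gamma and beta loci in an RNA-seq table of 25630 rows from BEKO, a cell line of thymic lymphoma cells. They were chosen by symbol, with earlier results of these data known. Every row was taken whose mouse symbol begins with Trg followed by v, j or c, or Trb followed by v, d, j or c. The gamma locus gave 15 rows and the beta locus 53. Of the 68 rows, 58 carried such a symbol in the gene name table, and 10 gamma rows were found through RefSeq synonyms, because that table lists them under older names.

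The study measured RNA from BEKO cells at low density in 2 libraries and from BEKO cells at high density in 2 libraries. The labels give every library the genotype WT and record no treatment, medium or cell number. Nothing in them says that the libraries came from separate cultures, so the p-values below reflect the spread among these 4 libraries alone, and that spread could be technical. BEKO is a single line, and the values describe that line only. Levels are in TPM, transcript abundances per length of row that sum to 1000000 in each library. In such bulk samples fewer cells of a type and less RNA per cell cannot be told apart.

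A T cell receptor chain is assembled by joining a variable (V) segment to a joining (J) segment, in the beta locus with a diversity (D) segment between them, and the joined exon is spliced to a constant (C) region. The gamma locus of the mouse is a row of small clusters, each with its own V, J and C segments, and gamma chains pair with delta chains on γδ T cells. The beta chain pairs with the pre-T alpha chain in immature thymocytes and with the alpha chain in αβ T cells. Unjoined V segments can also be transcribed, and a row level alone does not tell a joined transcript from an unjoined one.

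Several of these rows are near copies, which bears on every level below. The gamma J segments Trgj1, Trgj2, Trgj3 and Trgj4 are shown whole because they are the shortest rows in the gamma locus. All sequences are from GENCODE transcripts on chromosome 13 for gamma and chromosome 6 for beta, 5′ to 3′ on the coding strand. Capitals mark the bases that differ from the first sequence of each set. Trgj4 is longer by a base and was not compared base by base.
Trgj1: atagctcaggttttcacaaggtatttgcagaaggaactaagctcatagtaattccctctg
Trgj2: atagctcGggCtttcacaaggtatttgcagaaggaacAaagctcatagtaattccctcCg
Trgj3: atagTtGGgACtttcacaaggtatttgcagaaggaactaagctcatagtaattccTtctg
Trgj4: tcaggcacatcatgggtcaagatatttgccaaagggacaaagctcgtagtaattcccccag
The first 60 bases of the gamma C regions follow. Trgc1 and Trgc3 each differ from Trgc2 at 1 base and Trgc4 at 11.
Trgc2: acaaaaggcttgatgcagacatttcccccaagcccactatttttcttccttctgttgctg
Trgc1: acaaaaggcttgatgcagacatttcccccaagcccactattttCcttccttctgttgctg
Trgc3: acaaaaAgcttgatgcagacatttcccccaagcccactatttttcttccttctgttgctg
Trgc4: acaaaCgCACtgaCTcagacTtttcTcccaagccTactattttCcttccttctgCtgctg
The next set gives the 60 bases of the leading gamma V segments that end at the codon of the conserved cysteine before the join.
Trgv1: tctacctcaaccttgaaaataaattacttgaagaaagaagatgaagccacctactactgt
Trgv2: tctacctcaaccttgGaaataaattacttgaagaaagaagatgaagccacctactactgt
Trgv3: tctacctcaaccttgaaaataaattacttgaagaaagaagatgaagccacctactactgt
Trgv4: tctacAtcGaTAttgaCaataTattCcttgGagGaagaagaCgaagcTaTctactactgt
The same window is shown for the leading beta V segment, Trbv13-2, and the other Trbv13 segments, which differ from it at 10 and 9 bases.
Trbv13-2: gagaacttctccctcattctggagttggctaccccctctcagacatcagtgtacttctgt
Trbv13-1: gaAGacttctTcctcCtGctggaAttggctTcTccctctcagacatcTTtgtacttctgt
Trbv13-3: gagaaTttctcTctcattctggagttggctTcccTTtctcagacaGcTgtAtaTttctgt

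Over the whole rows the same groups of near copies appear. Trgc1, Trgc2 and Trgc3 were 96.2% to 97.3% identical to one another over the bases that aligned, and Trgc4 was 76.8% to 81.1% identical to them. Trgv1, Trgv2 and Trgv3 were 94.6% to 96.5% identical to one another, and Trgv4 was 75.0% to 76.3% identical to them. Trbv13-2 was 88.7% identical to Trbv13-1 and 90.6% to Trbv13-3. The sources used here do not state how reads that fit more than 1 row were assigned, so the split of levels among Trgv1, Trgv2 and Trgv3, and among Trgc1, Trgc2 and Trgc3, is uncertain, while Trgv4 and Trgc4 stand further from their relatives.

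The number of reads behind each row could be recovered. The TPM of a row multiplied by its exon length in GENCODE was a whole multiple of a single step in each library, in 119 of 119 values above 0 and within 0.01 of a step. Taking a step as 1 read, the gamma rows held 37077 and 36113 reads at low density and 57765 and 27321 at high density. The beta rows held 1891 and 1829 reads at low density and 1252 and 1212 at high density. Trgv1, the leading gamma V row, rested on 2902 to 7664 reads in a library, and the pseudogene row Trbv8 on 0 to 11. Reads of PCR copies are not independent molecules, so limits drawn from read numbers cover counting error only.

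The labelled cell type was checked against marker genes. All 10 T cell markers had a mean of at least 1 TPM, and their summed level lay between 7545 and 8185 TPM in the 4 libraries. Cd5 reached that mean through the high density libraries, at 2.95 and 2.43 TPM, against 0.190 and 0.489 TPM at low density. The summed B cell markers reached 1.30 TPM at most, with Cd79b and Ms4a1 at 0, and the natural killer, erythroid and thymic epithelial lists stayed at or under 4.14 TPM. Myeloid markers summed to between 20.6 and 25.5 TPM, from Cd68 and Itgam, with Lyz2 at 0. Fibroblast markers summed to 46.7 TPM in low density library 1 and to between 0.263 and 0.536 TPM in the other libraries, from the collagen genes Col1a1 and Col1a2. The part of this difference in the results below was not tested.

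The gamma locus was expressed at high level in every library, and at 11.2 to 27.5 times the summed TPM of the beta locus. That ratio sets gamma V, J and C rows against beta V rows, since the other beta rows were listed at 0. The gamma V rows alone summed to 2043 and 1847 TPM at low density and to 3357 and 1683 TPM at high density. The beta V rows summed to 431 and 379 TPM at low density and to 282 and 285 TPM at high density. Of the 15 gamma rows, 12 had a mean of at least 1 TPM, and these were 1 V, 1 J and 1 C row for each of the 4 clusters. The gamma rows summed to 4825 and 4350 TPM at low density and to 7744 and 3805 TPM at high density. High density library 1 was above both low density libraries and high density library 2 below both, so the groups overlapped.

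Trgv1, the V segment of cluster C4, was the row of highest level in the gamma locus in 3 of the 4 libraries, and in high density library 2 it was next to Trgc2. It stood at 967 and 866 TPM at low density and at 1605 and 639 TPM at high density. These levels placed it between rank 59 and rank 139 of the 25630 rows. Trgc4, the C region of the same cluster, was at 893 and 771 TPM at low density and at 1363 and 554 TPM at high density. Trgj4, its J segment, was lower per length, at 92.9 and 116 TPM at low density and at 187 and 62.1 TPM at high density. In all 3 rows of the cluster the highest and the lowest library were both of high density.

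Cluster C2 came next in mean level. In high density library 2 C4 summed to 1256 TPM, below C2 with 1448 TPM. Trgv2, its V segment, was at 678 and 631 TPM at low density and at 1077 and 560 TPM at high density. Trgc2, its C region, was at 831 and 773 TPM at low density and at 1255 and 643 TPM at high density. Trgc2 and Trgc4 were thus of like level, and their order differed between libraries, since the ratio of Trgc4 to Trgc2 ran from 0.862 to 1.09. Trgj2, at 295 and 290 TPM at low density and at 608 and 246 TPM at high density, was the highest of the J rows in every library.

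Cluster C1 followed. Its V segment Trgv4 was at 313 and 284 TPM at low density and at 483 and 398 TPM at high density, and both high density libraries were above both low density libraries. Its C region Trgc1 was at 375 and 325 TPM at low density and at 526 and 363 TPM at high density. Its J segment Trgj1 was at 217 and 161 TPM at low density and at 260 and 174 TPM at high density. The C1 cluster holds 3 further V segments, Trgv5, Trgv6 and Trgv7, and these were at or near 0. Trgv5 is known for the receptors of epidermal γδ T cells and Trgv6 for γδ T cells that make interleukin 17, and both were at 0 in all 4 libraries, where 3 reads would have given between 0.511 and 0.725 TPM. Trgv7, known for the γδ T cells of the gut epithelium, had 5, 1, 1 and 0 reads in the low density and then the high density libraries, a mean of 0.370 TPM.

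Cluster C3 was the lowest of the 4. Trgv3, its V segment, was at 83.9 and 66.1 TPM at low density and at 192 and 86.1 TPM at high density. Trgc3, its C region, was at 58.6 and 46.4 TPM at low density and at 121 and 59.3 TPM at high density. Trgj3 was at 19.7 and 19.3 TPM at low density and at 66.6 and 20.6 TPM at high density, from 15 and 16 reads and from 51 and 15 reads. High density library 1 stood well above the other 3 libraries in each row, and high density library 2 was close to the low density libraries. Trgv3 and Trgc3 are also among the near copies described above, and the C region of this cluster has been described as a pseudogene.

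**Figure D1:**
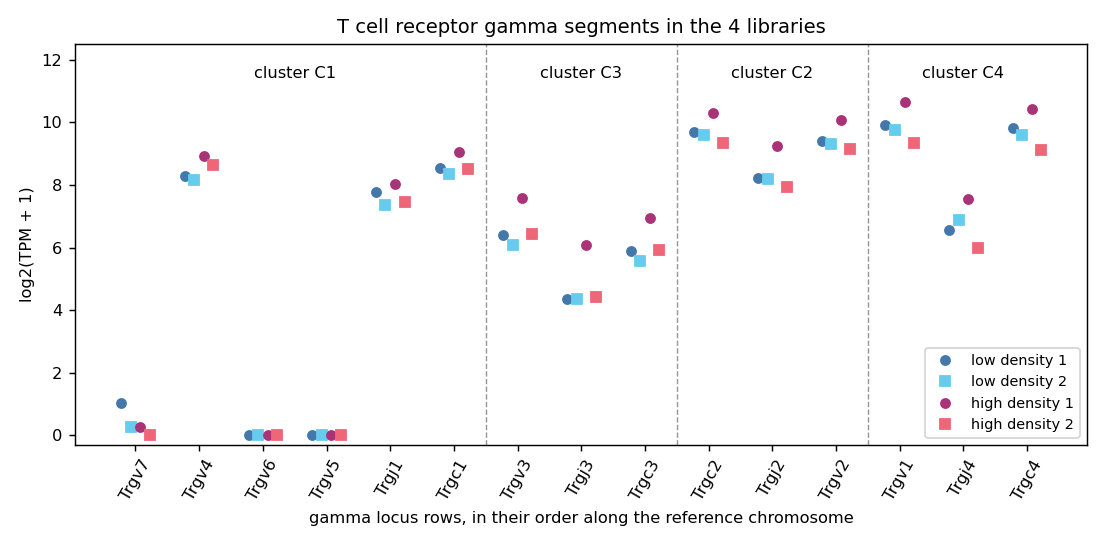
Level of the 15 gamma rows as log2(TPM + 1), in their order along the reference chromosome, with 1 point for each of the 4 libraries and dashed lines between the clusters. Each cluster has a V, a J and a C row well above 0, and Trgv5 and Trgv6 are at 0 in every library.

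The order of the clusters was the same in the V rows of each library. Cluster C4 held 47.3% and 46.9% of the summed TPM of the V rows at low density and 47.8% and 38.0% at high density. Cluster C2 held between 32.1% and 34.2% in the 4 libraries. Cluster C1 held 15.4% in both low density libraries and 14.4% and 23.6% at high density, and cluster C3 between 3.58% and 5.73%. High density library 2 therefore differed from the other 3 libraries by a smaller share of C4 and a larger share of C1, while high density library 1 was close to the low density libraries. The ratio of Trgv1 to Trgv4 was 3.09 and 3.05 at low density and 3.33 and 1.61 at high density. Trgv1 and Trgv4 are not near copies, at 75.8% identity.

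The C rows gave a like split on average, though the order of Trgc4 and Trgc2 differed between libraries. Over the 4 libraries Trgc4 held on average 39.4% of the summed TPM of the C rows, Trgc2 39.3%, Trgc1 18.2% and Trgc3 3.12%. In the J rows the order was another one, with Trgj2 between 47.3% and 54.2% in the 4 libraries, Trgj1 between 23.2% and 34.7%, Trgj4 between 12.4% and 19.8% and Trgj3 between 3.15% and 5.93%. The J rows are 60 or 61 bases long, shorter than the 353 to 985 bases of the other gamma rows of at least 1 TPM. A level per length of so short a row depends strongly on how reads that reach beyond it were counted.

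**Figure D2:**
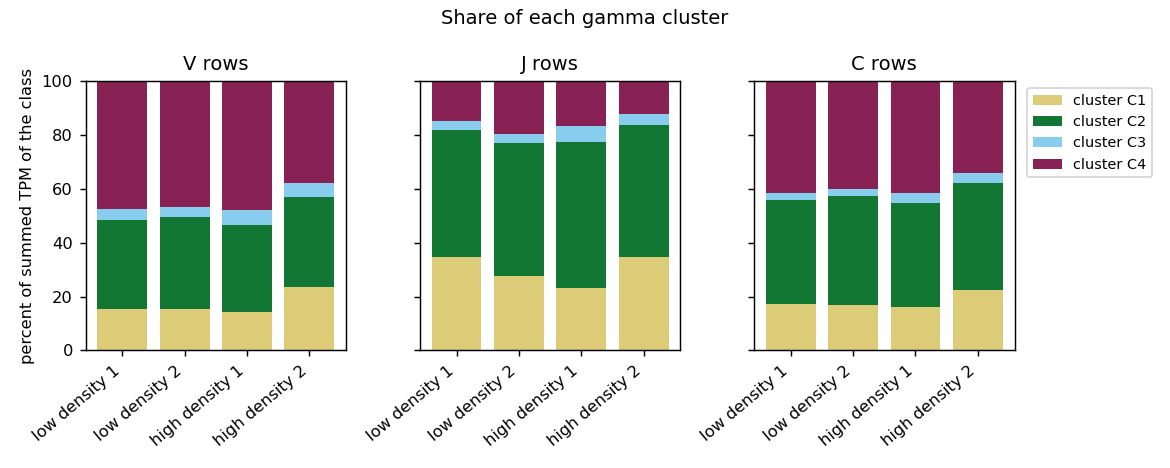
Share of each gamma cluster in the summed TPM of the V, J and C rows, in percent, with 1 stacked bar for each library. Cluster C4 has the largest share of V rows in every library and 38.0% in high density library 2, and cluster C2 has the largest share of J rows.

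Within a cluster the V and C rows stood close to each other per length. The ratio of Trgv4 to Trgc1 ran from 0.834 to 1.10 over the 4 libraries, that of Trgv2 to Trgc2 from 0.816 to 0.871, and that of Trgv1 to Trgc4 from 1.08 to 1.18. In cluster C3 the V row was the higher of the pair, with a ratio of Trgv3 to Trgc3 between 1.43 and 1.59. The J rows were below the C row of their cluster everywhere, from a ratio of 0.104 to 0.151 for Trgj4 to a ratio of 0.481 to 0.577 for Trgj1. Trgv1 made up 19.4% ± 1.75 (SD, 4 libraries) of the summed TPM of all 15 gamma rows. Among the gamma V rows alone its share was 45.0% on average. By TPM times length, which follows the number of reads, Trgc4 led with 28.3%, followed by Trgc2 with 26.1%, and Trgv1 held 12.2%.

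The beta V rows were dominated by a single segment. Trbv13-2 was at 373 and 310 TPM at low density and at 234 and 223 TPM at high density. It is 1 of the 35 beta V rows, which hold all of the summed beta TPM, since the other beta rows were listed at 0. It made up 86.4% and 81.8% of the summed TPM of the V rows at low density and 82.8% and 78.2% at high density. The mean was 82.3% ± 3.41 (SD, 4 libraries). Both high density libraries were below both low density libraries in level. It rested on 1609 and 1458 reads at low density and on 1014 and 920 reads at high density.

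Trbv12-2, the V segment directly before Trbv13-2 along the chromosome, was the only other beta row above 5 TPM. It was at 41.9 and 50.3 TPM at low density and at 37.8 and 46.9 TPM at high density, and the groups overlapped. It made up 13.2% of the summed TPM of the beta V rows on average. The ratio of Trbv13-2 to Trbv12-2 was 8.89 and 6.16 at low density and 6.17 and 4.76 at high density. The next segments on either side of this pair were near 0. Trbv13-1 had 1 and 6 reads at low density and 0 and 0 at high density, and Trbv12-3 had 0 and 1 reads at low density and 2 and 0 at high density. Trbv13-3, the copy nearest to Trbv13-2, had 6, 2, 1 and 4 reads. The level of Trbv13-2 was thus not matched by its relatives.

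The other 51 beta rows together summed to 16.5 and 18.8 TPM at low density and to 10.6 and 15.5 TPM at high density. Only 6 of them had a mean of at least 1 TPM, all of them V rows between 1.08 and 2.29 TPM. Trbv2 was at 1.69 and 3.74 TPM at low density and at 1.82 and 1.91 TPM at high density. Trbv3 was at 1.90 and 1.91 TPM at low density and at 0.172 and 2.54 TPM at high density. In both segments the groups overlapped. Trbv4 was at 0.801 and 1.66 TPM at low density and at 0.797 and 1.68 TPM at high density. Trbv6, a row annotated as a pseudogene, was at 2.28 and 0.262 TPM at low density and at 0.568 and 1.19 TPM at high density. These overlapped as well. Trbv15 was at 1.28 and 2.15 TPM at low density and at 2.33 and 3.12 TPM at high density, without overlap. Trbv8, also a pseudogene row, was at 2.76 and 2.79 TPM at low density and at 0 and 0.289 TPM at high density. Its high density levels were a read number of 0 and 1, against 10 and 11 at low density.

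The remaining 45 beta rows had a mean under 1 TPM, 27 of them with 0 in every library. The other 18 had means between 0.0511 and 0.771 TPM, and no single value above 1.81 TPM. The highest of them by mean were Trbv5 at 0.771 TPM, Trbv13-3 at 0.754 TPM, Trbv25 at 0.729 TPM, Trbv18 at 0.662 TPM and Trbv12-1 at 0.514 TPM. Trbv25 and Trbv18 are annotated as pseudogenes, as are 14 of the 68 rows in all.

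**Figure D3:**
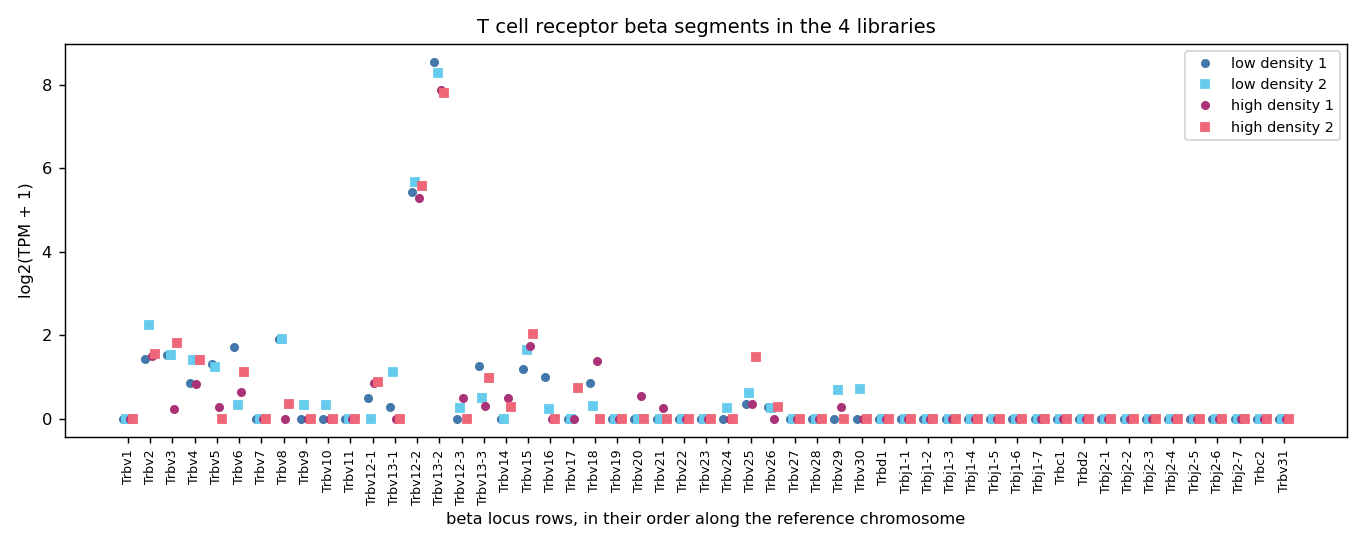
Level of the 53 beta rows as log2(TPM + 1), in their order along the reference chromosome, with 1 point for each of the 4 libraries. Trbv13-2 and its neighbour Trbv12-2 stand above all other rows, and every D, J and C row is at 0.

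The 2 D rows, the 14 J rows and both C rows of the beta locus, Trbc1 and Trbc2, were at exactly 0 in all 4 libraries. For the C regions, which every beta chain transcript carries, 3 reads would have given between 0.290 and 0.357 TPM. The table also holds 19 rows whose names begin with TCRB_, and 18 of these carry the name of a beta row under another nomenclature: 17 of the 18 D, J and C rows, and Trbv31. All 18 beta rows with such a second row were at 0 in all libraries, as were the second rows themselves. Of the 35 beta rows without one, 9 were at 0, among them the J row Trbj1-7. The only TCRB_ row above 0 was TCRB_Eb, with 0.516 and 3.63 TPM at low density and 0 and 0 at high density. An exact 0 can come from counting where 2 rows cover the same bases. The part of the second rows in these values was not tested, so Trbd, Trbj, Trbc and Trbv31 are given only as listed at 0, and nothing is read from them about beta chain transcripts. The TCRB_ names are beta names, so these rows cannot show whether gamma rows have second rows under other names.

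High density was compared with low density by limma, a linear model with moderated variances, on log2(TPM + 1), with Benjamini-Hochberg adjustment across the 10936 rows whose mean reached 1 TPM. Of the 68 receptor rows, 20 passed that filter, 12 gamma and 8 beta. At an adjusted p under 0.05, 1 of the 20 was called, and it was lower at high density. Among all rows tested, 6.68% were called, 4.57% higher and 2.11% lower, so the share in the receptor rows was near the background. The groups did not overlap in 7 of the 20 rows, 4 gamma and 3 beta, against 54.7% of all rows tested. Of the 20 rows, 4 had an unadjusted p under 0.05, against 23.5% of all rows tested.

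The row called was Trbv8, at -1.73 ± 0.41 (log2 fold change and SE), with adjusted p = 0.0287 by limma. As given above, it rests on 21 reads at low density and 1 read at high density. The ratio of these reads, high over low and scaled for library, was 0.0507, with an exact 95% interval from 0.00123 to 0.316 that covers counting error only. This row was singled out by its call on the same reads, so the interval adds no support to that call. Trbv8 passed the filter through its low density libraries alone, as its high density mean was 0.145 TPM. The call was lost, at adjusted p = 0.0518 with the libraries centred on their medians, at 0.0562 after quantile normalization, at 0.147 without low density replicate 1 and at 0.0668 without low density replicate 2.

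Trbv13-2, the leading beta segment, was not called, at adjusted p = 0.152 by limma, with a log2 fold change of -0.57 ± 0.23 (SE). It was lower in both high density libraries than in either low density library. Its limma adjusted p was 0.101 with the libraries centred on their medians and 0.149 after quantile normalization. With 1 library left out its log2 fold change ran from -0.70 to -0.44. The sum of all beta rows was 405 ± 36.7 TPM (SD, n = 2) at low density and 284 ± 2.32 TPM (SD, n = 2) at high density, a ratio of 0.700. Trbv12-2 beside it had a log2 fold change of -0.12 ± 0.26 (SE) and an adjusted p of 0.817 in the same fit by limma. Trbv15 had a log2 fold change of 0.47, and those of Trbv2, Trbv3, Trbv4 and Trbv6 lay between -0.51 and 0.0043, none of them called.

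No gamma row was called. The log2 fold change of Trgv4 was 0.55 ± 0.23 (SE), at adjusted p = 0.167 by limma, and both high density libraries were above both low density libraries. Trgv3 had 0.78 ± 0.34 with an adjusted p of 0.191, Trgc3 0.69 ± 0.33 with 0.229 and Trgj3 0.90 ± 0.43 with 0.235 in limma, again without overlap. The leading rows moved less between the group means: the log2 fold change was 0.15 ± 0.35 for Trgv1 and 0.067 ± 0.35 for Trgc4, with limma adjusted p of 0.838 and 0.931. Their standard errors were wider than the change, and 1 high density library was above and the other below the low density libraries. In every SE from limma here, a row has 2 degrees of freedom from its own libraries and 9.53 from all rows tested. Such an SE can understate the spread of a row whose libraries disagree, as in Trgv1 and Trgc4.

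The median log2 fold change was 0.28 over the 12 gamma rows tested, -0.23 over the 8 beta rows tested and 0.12 over all rows tested. All 12 gamma values were above 0, from 0.057 to 0.90, but 7 of 12 were so with the libraries centred on their medians, 11 of 12 after quantile normalization and 5 of 12 without high density replicate 1. Centring moved the median of all rows tested to -0.063. The summed gamma TPM was 4587 ± 336 (SD, n = 2) at low density and 5774 ± 2785 (SD, n = 2) at high density, a ratio of 1.26. Without high density replicate 1 that ratio was 0.829, and without high density replicate 2 it was 1.69. A direction for the gamma locus with density was therefore not detectable in these libraries. Without high density replicate 2 the median log2 fold change was 0.76 over the gamma rows and -0.025 over all rows tested. Without high density replicate 1 these medians were -0.16 and 0.26. The log2 fold changes of Trgv1 and Trgc4 were 0.81 and 0.72 without high density replicate 2. They were -0.52 and -0.58 without high density replicate 1. The direction of the gamma median, of Trgv1 and of Trgc4 thus changed with the high density library that was kept. With a single library left in a group, these fits assume that it varies like the others.

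**Figure D4:**
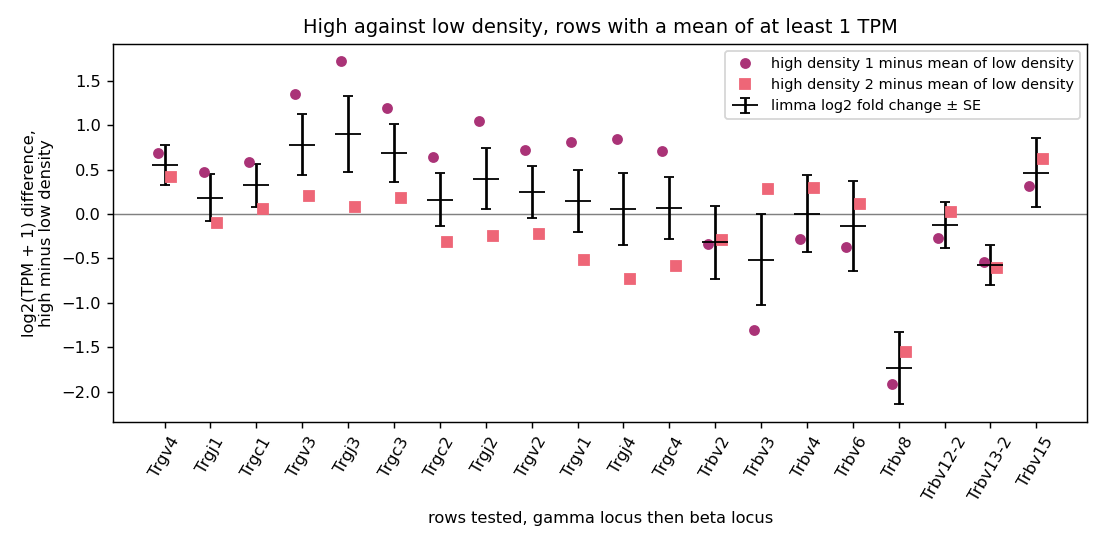
Difference in log2(TPM + 1) between high and low density for the 20 rows tested, gamma then beta. Black bars give the limma log2 fold change with its moderated SE. Coloured points give each high density library minus the mean of the low density libraries. In the Trgv1 and Trgc4 rows the points of the high density libraries lie on opposite sides of 0, and in the Trbv13-2 row both lie below 0.

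Other genes of receptor assembly and of the control of these loci were read from a fixed list in the same fit. The list was set with earlier results of these data known. For the counts below, 6.68% of all rows tested were called, 4.57% higher and 2.11% lower. Among the receptor chain and pre-receptor genes, 2 of 7 were called, both higher: Trac and Trdc, the constant regions of the alpha and the delta chain. Trac was at 14.4 and 13.4 TPM at low density and at 84.8 and 116 TPM at high density, and Trdc at 18.1 and 16.0 TPM and at 101 and 77.1 TPM. The gamma rows, whose chain pairs with the delta chain, were called in no direction, as given above. Ptcra, the pre-T alpha chain that pairs with the beta chain, was at 1102 and 971 TPM at low density and at 791 and 766 TPM at high density, a log2 fold change of -0.41 with a limma adjusted p of 0.283. Among the recombination genes, 2 of 3 were called, both lower: the recombinase genes Rag1, at 609 and 480 TPM and then 185 and 182 TPM, and Rag2, at 47.7 and 40.6 TPM and then 16.0 and 12.9 TPM. The call on Rag2 was lost without low density replicate 1, at an adjusted p of 0.202, and without low density replicate 2, at 0.212. The median log2 fold change was 0.030 over the receptor chain list and -1.55 over the recombination list.

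Among 12 genes that control the loci, 1 was called higher and 1 lower, against 4.57% and 2.11% of all rows tested. Their median log2 fold change was 0.36. Gata3, a transcription factor of early T cells, was at 72.7 and 58.4 TPM at low density and at 264 and 138 TPM at high density, which gave 1.54 ± 0.31 (log2 fold change and SE) at adjusted p = 0.0130 by limma. The call on Gata3 was lost with the libraries centred on their medians at 0.113, after quantile normalization at 0.0836 and without low density replicate 2 at 0.204. Il7r, the interleukin 7 receptor chain whose signal is known to open the gamma locus in the mouse, was at 30.5 and 20.9 TPM at low density and at 11.7 and 6.44 TPM at high density. Both high density libraries were the lower ones for Il7r, at -1.43 ± 0.34 (log2 fold change and SE) and adjusted p = 0.0294 by limma. The call on Il7r was lost with such centring at 0.0806, after quantile normalization at 0.0764, without low density replicate 1 at 0.449 and without low density replicate 2 at 0.256.

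Among the 10 T cell markers 1 was called, against 6.68% of all rows tested. It was Cd2, an adhesion receptor of T cells, at 99.8 and 91.4 TPM at low density and 309.7 and 278 TPM at high density. Its log2 fold change was 1.61 ± 0.23 (SE), at adjusted p = 0.00225 by limma. The call was lost without low density replicate 2, at an adjusted p of 0.0617. The median log2 fold change over the marker list was 0.24.

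Genes that lie in or beside the loci were read the same way. At the beta locus 1 of 3 genes tested was called, against 6.68% of all rows tested: Prss2, a trypsinogen gene within the locus, before Trbd1. It was at 10.6 and 9.10 TPM at low density and at 47.9 and 40.6 TPM at high density, which gave 2.06 ± 0.28 (log2 fold change and SE) at adjusted p = 0.00179 by limma. Prss2 was thus higher at high density while Trbv13-2, in the same locus, was lower in both high density libraries without passing the test. The call on Prss2 was lost without low density replicate 2, at an adjusted p of 0.0812. Ephb6, a receptor gene beyond the C regions, was at 81.6 and 61.3 TPM at low density and at 43.5 and 69.8 TPM at high density and was not called. At the gamma locus Stard3nl, a neighbouring gene, was at 32.6 and 30.4 TPM at low density and at 27.4 and 38.8 TPM at high density. It was not called, and its highest and lowest libraries were both of high density, the lowest being library 1.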

How the data were processed

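Per the labels' protocols, a column kit was used for the RNA and a company prepared the strand-specific libraries, and the samples are described as total RNA. The authors deposited a table of TPM with 1 column for each library, tied to its sample by the labels, and 0 other value columns. The submitters' processing notes name the build mm9 and DESeq2 1.2.10, with no role. The sources used here do not name the aligner, the counter or the annotation. Of 699 Ensembl rows, 699 were matched to a symbol. Sequences, exon lengths and row order came from GENCODE M21, of a later build, so no coordinates are given. Total depth per library is unknown, and only the reads of the rows described were recovered.

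Rows whose mean reached 1 TPM were tested on log2(TPM + 1), which understates changes of low rows, with limma 3.58.1 in R 4.3.3 (mean-variance trend, two-sided, all 4 libraries, no covariate). Calls were made at an adjusted p under 0.05, after Benjamini-Hochberg adjustment across the rows tested. The smallest p an exact permutation test of 2 against 2 can give is 0.333, so none is reported. On simulated data the procedure found 51% of 2-fold and 99.6% of 4-fold changes, and 8.28% of its calls were false. Every receptor row with a mean of at least 1 TPM is named, with the highest rows below it, all C rows and the called genes of fixed lists. The receptor rows and the lists were chosen with earlier results of these data known. Alternatives covered the pseudocount, the filter, the scaling, the trend, the replicate number as a block and each library left out.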

Additional observations from a re-analysis of the deposited data

How the results depend on the processing

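Against 731 rows called, 500 higher and 231 lower, limma called 0 with no filter on low values (2638 at an unadjusted p under 0.05), 314 with median centring (160 higher and 154 lower), 360 after quantile normalization and 181 to 3734 with 1 library left out. Against 1 receptor row, it called 0 with no filter (6 at an unadjusted p under 0.05, and Trbv8 at adjusted p = 0.134), 0 at a mean of at least 5 TPM (where Trbv8 was not tested), 0 with median centring, 0 after quantile normalization and 0 to 13 with 1 library left out. All calls on the other genes of the lists were lost with no filter. The labels do not say whether the replicate numbers pair the libraries. The deviations of same-numbered libraries correlated at 0.042 over 10936 rows, which does not settle it. With the replicate number as a block 937 rows were called, 1 of them a receptor row. The share of Trgv1 was 45.0% of V rows alone and 12.2% by TPM times length, and 18.9% to 20.2% with 1 library left out. With 1 library left out, the share of Trbv13-2 in the beta V rows was 80.9% to 83.7%. The log2 fold change turned in sign for Trbv6 at a pseudocount of 0.1 (0.0016). With median centring it turned for Trgj1 (-0.00026), Trgc2 (-0.023), Trgv1 (-0.040), Trgc4 (-0.12), Trgj4 (-0.13) and Trbv4 (-0.18), and after quantile normalization for Trgj4 (-0.053) and Trbv4 (-0.11). With 1 library left out it ran from -0.52 to 0.81 for Trgv1, -0.22 to 0.72 for Trgv2, -0.10 to 0.47 for Trgj1, -0.25 to 1.05 for Trgj2, -0.73 to 0.85 for Trgj4, -0.32 to 0.65 for Trgc2, -0.58 to 0.72 for Trgc4, -0.73 to 0.093 for Trbv2, -1.31 to 0.28 for Trbv3, -0.28 to 0.29 for Trbv4, -0.82 to 0.11 for Trbv6 and -0.27 to 0.029 for Trbv12-2. The cause of these turns was not tested. Read numbers limit the beta rows other than Trbv13-2 and Trbv12-2.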
